A study of Mus musculus with 9 samples.

Results

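The fragile X protein FMRP, which binds RNA, was precipitated from mouse brain polyribosomes with 2 kinds of antibody. Dissociation and sequencing platform were the same, while ages matched only in part. A mixture of the monoclonal antibodies 7G1-1 and 2F5 gave 3 libraries, at postnatal days 14, 15 and 25 (P14, P15, P25). The polyclonal antibody ab17722 gave 2 libraries, at P14 and P25. These 5 of the 9 libraries of the series were chosen by their labels, since all were dissociated in 1% SDS and read on the 454 platform. The other 4 libraries, at P11 and P13, were dissociated in 2% SDS and read on Illumina: 2 used the polyclonal antibody and 2 an antiserum against the neuronal Hu proteins.

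The assay was HITS-CLIP, in which ultraviolet light fixes a protein to the RNA it touches, the protein is precipitated and the attached RNA fragments are sequenced. All 5 libraries came from FVB mice. Per the labels' protocols, cortex and cerebellum were taken free of white matter, and the mice were male wild-type and Fmr1-null littermates. The labels of the single libraries give a strain but no genotype. The series text describes pooled littermates, so each library is a pool, and the libraries of one antibody differ in age. The p-values therefore measure only the spread between these libraries.

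FMRP binds mRNA on brain polyribosomes and is known to hold back translation of many of its targets, which include long mRNAs for synaptic scaffolds, ion channels and cytoskeletal proteins. Most of its crosslinks lie in coding sequence, whereas Hu proteins are known for binding U-rich elements in introns and 3' untranslated regions. A monoclonal antibody recognises 1 epitope, while a polyclonal serum is a mixture that recognises several epitopes of its antigen. FMRP has 2 close paralogs in mammals, FXR1 and FXR2. The comparison asks whether the RNA recovered depends on the antibody used.

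The monoclonal libraries held 4397 (P14), 6762 (P15) and 7713 (P25) unique tags on transcripts, and the polyclonal libraries 6533 (P14) and 5625 (P25). In the authors' gene table the 5 libraries placed 33065 tags on 5968 genes, and 698 of these genes had a tag in all 5. A count of 0 tags allows up to 3 counts, or 669 CPM (tags scaled to a library total of 1000000) in the smallest library. Read names showed that the P14 monoclonal and P14 polyclonal libraries shared a 454 run, that the P25 pair shared another run, and that the P15 monoclonal library had a run of its own. Run and age therefore cannot be told apart, but each run of P14 and P25 holds both antibodies. Marker genes of neurons had 126 tags in the 5 libraries, those of oligodendrocytes 50 and those of astrocytes 51, against 4 for microglia, 2 for the erythroid list and 1 for endothelium. Among the cerebellar markers, Itpr1 carried 63 of 68 tags, and Pcp2 and Calb1 had none.

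The same long neuronal transcripts led the libraries of both antibodies. Bsn, which encodes the presynaptic scaffold bassoon, had 26, 47 and 68 tags in the monoclonal P14, P15 and P25 libraries and 50 and 42 in the polyclonal P14 and P25 libraries. Kif1a, which encodes an axonal kinesin motor, had 25, 63 and 37 monoclonal tags against 40 and 32 polyclonal tags. For Map1a, a microtubule-associated protein, the values were 30, 42 and 44 against 46 and 31. In CPM, the ranges of the 2 antibodies overlapped for these 3 genes. The log2 difference (monoclonal minus polyclonal) was -0.19 for Bsn, with a 95% interval of -0.86 to 0.48, 0.02 for Kif1a (-0.65 to 0.68) and -0.16 for Map1a (-0.82 to 0.50). As ratios, the 3 intervals run from 0.55-fold to 1.60-fold. Tags per gene were not divided by transcript length, so the order of the genes is one of tags, not of binding per base.

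Cyfip2, which encodes a partner of FMRP in the WAVE actin complex, had 21, 29 and 51 monoclonal tags and 23 and 37 polyclonal tags. Its values were high at P25 with both antibodies and low at P14 with the polyclonal one. Adcy1, a calcium-stimulated adenylyl cyclase, had 21, 45 and 47 against 21 and 40 tags, and the polyclonal libraries were its lowest and its highest in CPM. Atp2b2, a plasma membrane calcium pump, had 32, 24 and 29 against 25 and 20 tags, with the P14 monoclonal library well above the other 4. Map1b, a microtubule-associated protein and a long-known FMRP target, had 22, 26 and 27 against 30 and 17 tags. In each of these 4 genes the antibodies overlapped, and the log2 differences lay between -0.08 and 0.19. Only Agap2 and Adgrb2 among the 12 genes with most tags had every monoclonal library above both polyclonal ones. Agap2, a GTPase-activating protein for Arf, had 31, 43 and 53 against 38 and 16 tags, or 5818 to 6912 CPM against 2726 and 5461. Adgrb2, an adhesion receptor, had 16, 26 and 35 against 22 and 11 tags. The log2 difference was 0.49 (-0.18 to 1.16) for Agap2 and 0.45 (-0.24 to 1.14) for Adgrb2, and in both the P25 polyclonal library was the lowest by a clear margin.

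**Figure D1:**
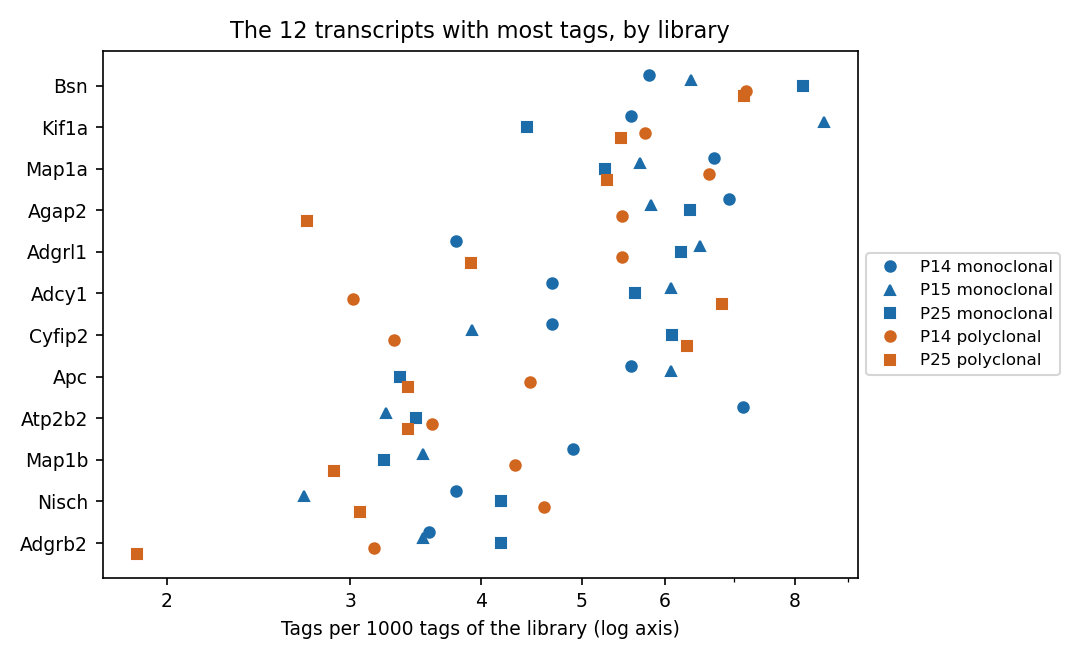
Tags per 1000 tags of the library (log axis) for the 12 genes with most tags. Blue marks are the 3 monoclonal and orange marks the 2 polyclonal libraries, with circles for P14, triangles for P15 and squares for P25. The antibodies overlap in 10 of the 12 genes, Agap2 and Adgrb2 being the others.

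Gene rankings of libraries with the same antibody and with different antibodies were about equally close. Over 220 genes with at least 25 tags in the 5 libraries, Spearman's rank correlation between 2 libraries of the same antibody had a median of 0.402 (4 pairs, 0.313 to 0.559). Between libraries of different antibodies it had a median of 0.435 (6 pairs, 0.308 to 0.453). The 2 pairs that shared a run and an age were the highest of these, at 0.453 each, and without them the range was 0.308 to 0.450 (median 0.413). No pair of the same antibody shared a run. These coefficients are across genes, which are not independent replicates, and all 10 pairs share the transcript lengths and the small tag numbers. The highest coefficient joined the P15 and P25 monoclonal libraries, which were also the largest, and the second lowest joined the 2 polyclonal libraries. Of the 100 genes with most tags in a library, 49 to 71 were shared within an antibody and 51 to 62 between antibodies. The 100 leading genes of the other 4 libraries took 20.7%, 20.2% and 20.5% of the monoclonal tags and 20.1% and 18.1% of the polyclonal tags. The P14 polyclonal library was thus close to the monoclonal ones, and the P25 polyclonal library was the lowest.

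Dense sites of one antibody also held tags of the other. For 180 genes with at least 10 transcript tags of each antibody, the 100-nt window densest in monoclonal tags was taken, and the polyclonal tags in that window were counted. It held a median of 17.2% of the monoclonal tags that defined it and 4.98% of the polyclonal tags, against 1.33% if tags lay evenly along the 163 transcripts with a known length, a spread that ignores the lean toward coding sequence. No polyclonal tag fell in the window in 78 of the 180 genes. Some leading genes had few tags in the transcript tag lists, with 0 for Map1b, 0 for Dlgap1 and 5 of each antibody for Apc. They are absent from the windows and weigh little in the position and pile-up results. The densest windows of the 2 antibodies overlapped in 45 genes (25%). With windows set by the P15 monoclonal library alone, which shared no run with the others, 70 genes could be measured. Those windows held on average 5.33% of the polyclonal tags and 4.62% of the tags of the other monoclonal libraries, against 1.33% if tags lay evenly. A window found with one antibody was thus about as full in the other antibody's libraries as in that antibody's own remaining libraries.

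Individual windows show how few tags such a site has. In Adcy1 the monoclonal window, starting 2202 nt into the transcript, held 1, 5 and 9 monoclonal tags and 1 and 8 polyclonal tags, or 13.6% and 15% of each antibody's tags. In Atp2b2 the window at 3606 nt held 5, 2 and 3 monoclonal and 4 and 3 polyclonal tags. Every library contributed to both windows. Such agreement was not the rule, since the densest windows of the 2 antibodies overlapped in 45 of the 180 genes. In Bsn, Map1a and Kif1a they started 145, 4713 and 2681 nt apart. The monoclonal windows of these genes held 2, 4 and 1 polyclonal tags. In Arhgap33 the windows of the 2 antibodies began 2 nt apart, and the monoclonal window held 36.8% of the monoclonal and 35.7% of the polyclonal tags. Kcnh1, a potassium channel, and Auts2 behaved differently: the Kcnh1 window held 5 tags in each P14 library and none elsewhere, and the Auts2 window 4 and 5 in the P14 libraries and 1 in the others. In Kcnh1, 4 tags of the P14 monoclonal library had the same start and end as a P14 polyclonal tag. These genes and Arhgap33 were chosen after their values were seen.

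Tags with the same start and end were more frequent between libraries of one run. The P14 monoclonal and P14 polyclonal libraries shared 98 identical tags, or 3.41 per 1000000 possible pairs of tags, and the P25 pair shared 139, or 3.20. The other 8 pairs of libraries had 1.83 to 2.55 on this scale, whether they shared an antibody or not. By their read names, the libraries of a pair also shared the regions of the run, region 2 for P14 and regions 1 and 2 for P25. Age, lysate source and region cannot be told apart from the run in these pairs.

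No gene passed the test for a difference between the antibodies. With edgeR's quasi-likelihood test, 96 genes had enough tags to be tested, and 0 passed an adjusted p of 0.05 (0%), while 4 had an unadjusted p under 0.05 (4.17%). DESeq2 called 0 genes as well, with 0 at an unadjusted p under 0.05. Of the 96 genes, 44 were higher with the monoclonal mixture and 52 with the polyclonal antibody, and the median log2 difference was -0.02. Scaled by library totals alone, 59 were higher with the monoclonal mixture and 37 with the polyclonal antibody, at a median of 0.09, so the split depends on the scaling. In 17 genes (17.7%) the libraries of the 2 antibodies did not overlap, 12 with the monoclonal libraries above (12.5%) and 5 with them below (5.21%). How large a difference could have gone unseen depended on the tags. Of the 14 genes with over 100 tags, 12 had a 95% interval within 2-fold in either direction. Of the 45 genes with 51 to 100 tags, 11 had such an interval and 41 had one within 4-fold. Of the 37 genes with 21 to 50 tags, none had an interval within 2-fold and 27 had one within 4-fold.

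**Figure D2:**
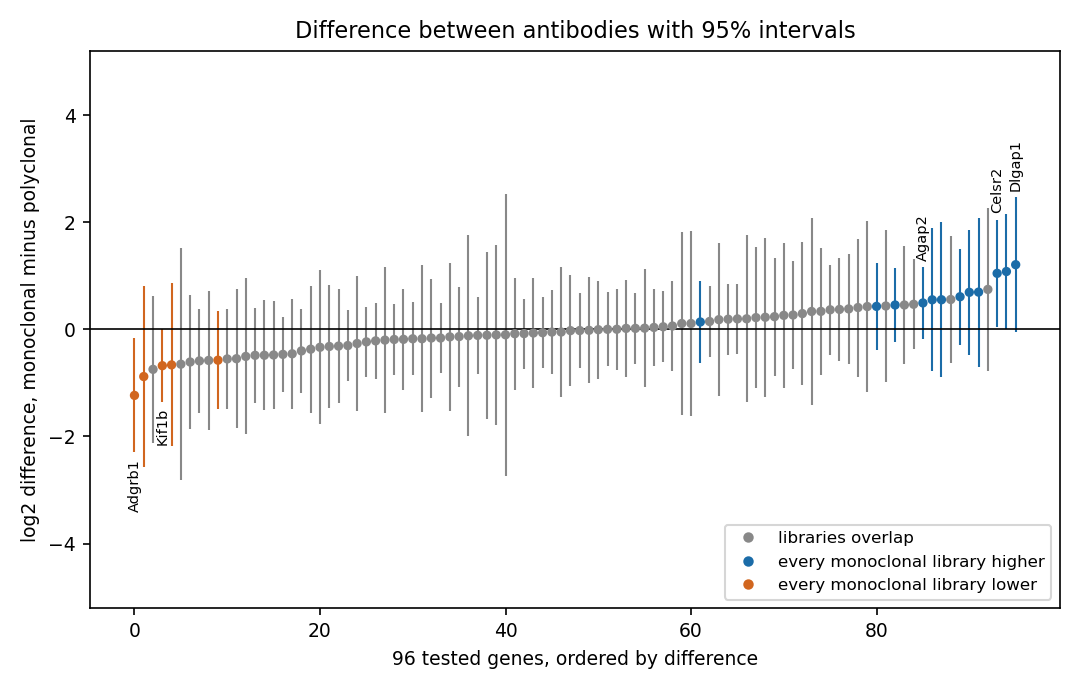
Log2 difference in tags, monoclonal minus polyclonal, for the 96 tested genes in order of the difference, with 95% intervals computed from the edgeR test. Blue genes have every monoclonal library above both polyclonal ones (12), orange genes every monoclonal library below (5), and grey genes overlap.

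The genes with the smallest unadjusted p are given as values, since none passed. On the monoclonal side, Celsr2, a cadherin of the planar polarity system, had 12, 22 and 15 monoclonal tags and 9 and 5 polyclonal tags. Grik5, a kainate receptor subunit, had 15, 16 and 14 against 11 and 2, and Dlgap1, a scaffold of the postsynaptic density, 6, 12 and 24 against 3 and 7. In CPM, every monoclonal library was above both polyclonal ones in all 3. The log2 differences were 1.04 (0.04 to 2.05), 1.08 (0.01 to 2.15) and 1.21 (-0.05 to 2.46). Single polyclonal libraries moved some of these values: Grik5 stood at 0.47 without the P25 library and at 2.55 without the P14 one, and Dlgap1 at 2.14 and 0.64. The adjusted p in edgeR's quasi-likelihood test was 0.999 for each, and their unadjusted p were 0.0388, 0.0462 and 0.0562. Wdfy3, Ttc3 and Prrc2b followed with Agap2 and Adgrb2, at log2 differences of 0.45 to 0.69.

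On the polyclonal side, Adgrb1, an adhesion receptor that the authors' table lists as Bai1, had 6, 7 and 9 monoclonal tags against 19 and 12 polyclonal tags. Kif1b, a kinesin motor, had 10, 15 and 26 against 23 and 24. Neither gene overlapped between antibodies in CPM. The log2 differences were -1.23 (-2.30 to -0.17) and -0.68 (-1.36 to -0.0022), with unadjusted p of 0.0218 and 0.0479 and adjusted p of 0.999 by edgeR. The huntingtin gene Htt had 8, 14 and 11 against 16 and 13. Lingo1, Lrp1, Nlgn2 and Srebf2 completed this group at log2 differences of -0.75 to -0.49. Of Htt and these 4 genes, only Htt had libraries that did not overlap.

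The 2 Illumina libraries of the same polyclonal antibody give a second view, at other ages, in 2% SDS and on another platform. Adgrb1 had 14 and 20 tags there, or 549 and 459 CPM, against 947 to 1338 in the monoclonal libraries and 2730 and 2044 in the polyclonal 454 libraries. In the Illumina libraries this gene was thus below every library of either antibody on 454. Celsr2 (1334 and 1607 CPM), Grik5 (941 and 666) and Dlgap1 (667 and 735) were below every monoclonal library in both. Of the 12 genes with the monoclonal libraries above, 8 had both Illumina polyclonal libraries below every monoclonal library. Over all 96 genes 47 did (49%), so this count is close to the background. Of the 5 genes with the monoclonal libraries below, only Pclo, which encodes the presynaptic scaffold piccolo, had both Illumina libraries above every monoclonal one, against 9 of all 96 genes (9.4%). Its 454 tags were 2, 5 and 11 against 10 and 9.

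Genes found with a single antibody were mostly genes with 1 tag. The monoclonal libraries tagged 4809 genes and the polyclonal libraries 3902, with 2743 in common. Of the 2066 genes tagged by the monoclonal mixture alone, 64.5% had 1 tag, and of the 1159 tagged by the polyclonal antibody alone, 76.4% did. They held 16.9% of the monoclonal and 12.2% of the polyclonal tags. At 4485 tags, the total of the smallest library in the table, the monoclonal libraries reached 1993, 2231 and 2182 genes and the polyclonal libraries 2152 and 2224. The P14 monoclonal library was the lowest, and the other 4 lay close together, with the antibodies overlapping.

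The best-covered genes with no polyclonal tag had few tags. Mark1, a kinase of microtubule-associated proteins, had 4, 3 and 7 monoclonal tags, which is at least 2.96-fold higher than the limit of 3 counts over the polyclonal libraries. Csnk1g2, a casein kinase, had 6, 3 and 2 and was at least 2.32-fold higher. Hdlbp, which encodes the RNA-binding protein vigilin, had 3, 4 and 3 and was at least 2.11-fold higher. Fam171a2 and Sez6 had 9 tags each. These 5 genes were chosen for having no polyclonal tag, so the folds are given as a description only. All 5 genes had tags in both Illumina libraries of the polyclonal antibody, Hdlbp 10 and 16 of them.

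Among genes with no monoclonal tag in the authors' table, Dbpht2 had 12 tags in the P14 polyclonal library and none in the P25 one, while the transcript tag lists placed 1 tag of the P15 monoclonal library on it. Taken as counted and scaled by library totals, the 12 tags were 6.31-fold the limit of 3 counts over the monoclonal libraries. But the polyclonal tags on this transcript all lay in a single 100-nt window. Gnb2, a G protein beta subunit, had 5 and 1 tags, and Mark2, a relative of Mark1, had 3 and 3. Both were at least 3.15-fold higher. Erc1, an active zone protein, had 0 and 5 tags and Extl1 had 3 and 2. In Gnb2, Mark2 and Extl1 both polyclonal libraries contributed, whereas Dbpht2 and Erc1 rested on 1 library each.

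The mRNAs for FMRP and its relatives were rarely tagged. Fmr1 itself had 0 tags in all 5 libraries. Fxr1 had 1 tag, in the P14 polyclonal library. Fxr2 had 3, 0 and 0 monoclonal and 5 and 2 polyclonal tags, or 0.272 times as many per library total (95% counting interval 0.0453 to 1.19). Cyfip1 had 2, 0 and 0 against 0 and 1 tags. Nufip1 had none and Nufip2 had 1, in the P25 polyclonal library. Cyfip2 held 161 of the 176 tags of this list.

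Groups of genes took similar shares of the tags with both antibodies. Of 22 lists, 18 overlapped between antibodies and 4 (18.2%) did not, close to the 17.7% of single genes. None held a gene that passed the test. Microtubule proteins and motors took 3.92%, 3.92% and 3.10% of the monoclonal tags and 3.69% and 3.36% of the polyclonal tags. Of their 8 tested members, 2 were higher with the monoclonal mixture and 6 with the polyclonal antibody, at a median log2 difference of -0.14 against -0.02 for all tested genes. With library totals alone 4 were higher in each direction, at a median of -0.02 against 0.09. Of 4 tested spectrin and ankyrin genes, 4 were higher with the polyclonal antibody (median -0.32), and 3 with library totals alone (median -0.20). For presynaptic genes 1 of 4 was higher with the monoclonal mixture (median -0.19), and for ion channels and pumps 2 of 3 (median 0.19). Adhesion and guidance receptors, with 3 of 7 higher (median -0.08, and 4 of 7 with a median of 0.05 with library totals), held both Celsr2 and Adgrb1, which differed in opposite directions.

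Postsynaptic scaffolds and signalling proteins were one of the 4 lists without overlap. They took 3.37%, 3.06% and 3.37% of the monoclonal and 2.86% and 3.00% of the polyclonal tags. Of their 8 tested members, 5 were higher with the monoclonal mixture, and the median log2 difference was 0.13. With library totals alone 7 were, at a median of 0.27. Dlgap3 had 7, 12 and 12 against 4 and 8 tags, and Dlg4, which encodes PSD-95, 4, 11 and 16 against 7 and 8. The other 3 lists were higher with the polyclonal antibody. Ribosomal proteins and translation factors took 0.379%, 0.406% and 0.431% against 0.517% and 0.511%, and Eef2, the elongation factor of translocation, had 5, 10 and 16 against 17 and 8 tags. Neuron markers took 0.268%, 0.284% and 0.335% against 0.417% and 0.613%, with Map2 at 1, 10 and 6 against 5 and 15 tags and Snap25 at 1, 1 and 3 against 3 and 6. Oligodendrocyte markers took 0.111%, 0.135% and 0.084% against 0.244% and 0.187%, with the myelin gene Mbp at 0, 5 and 2 against 4 and 3 tags. These lists held 50 to 149 tags in the 5 libraries, and only 1 gene in the 3 lists together was tested. Scaled by library totals, the antibodies overlapped in Eef2, Map2 and Mbp but not in Snap25.

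The share of tags outside coding sequence was higher with the polyclonal antibody. Among tags on genes with a coding length, 13.3%, 16.4% and 15.2% lay outside it in the monoclonal P14, P15 and P25 libraries and 17.9% and 20.7% in the polyclonal P14 and P25 libraries. Both polyclonal libraries were above all 3 monoclonal ones. The coding share was 85.0% ± 1.57 (SD, n = 3) against 80.7% ± 1.95 (SD, n = 2), a difference of 4.29 points, with a 2-sided exact permutation p of 0.1. This is the smallest p that 3 against 2 libraries can give, and its Benjamini-Hochberg value over the 6 measures compared in this way was 0.6. Within the shared run of P14 the coding share was 4.59 points higher with the monoclonal mixture, and within that of P25 it was 5.43 points higher. The Wilson 95% intervals of the coding share were 85.6% to 87.7% and 81.2% to 83.0% for the P14 pair. For the P25 pair they were 84.0% to 85.5% and 78.3% to 80.4%. They did not overlap within a pair. These intervals take each tag as independent and cover counting error only, not the spread between libraries, so they do not test the antibody.

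The difference was present among genes with few tags and among genes with many. In the 4247 genes with 1 to 4 tags over the 5 libraries, 19.1%, 23.8% and 20.6% of the monoclonal tags were non-coding, against 25.2% and 30.3% of the polyclonal tags. In the 1405 genes with 5 to 19 tags the shares were 13.6%, 17.5% and 16.9% against 19.4% and 21.7%. In the 316 genes with 20 or more tags they were 9.81%, 10.9% and 10.2% against 11.9% and 12.5%. Both polyclonal libraries were above all monoclonal ones in each class, and the gap was smallest among the genes with most tags. In the 698 genes tagged in every library the coding share was 89.3%, 87.4% and 88.5% against 86.6% and 85.4%, a difference of 2.34 points. If the tags of each library lay evenly along their transcripts, 57.4%, 57.0% and 56.4% would be coding with the monoclonal mixture. With the polyclonal antibody 56.7% and 55.1% would be. Measured against that expectation, the monoclonal coding share was 3.27 points higher, compared with 4.29 points without it.

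Among 201 genes with at least 10 tags of each antibody, the non-coding share was higher with the polyclonal antibody in 92, higher with the monoclonal mixture in 77 and equal in 32. The median of the gene differences was 0 points and their mean 1.53 points. Adcy1, with the most non-coding tags, had 31.9% of its monoclonal and 34.4% of its polyclonal tags outside coding sequence, and Adgrl1, which encodes latrophilin 1, 26.5% and 27.9%. Atp2b2 had 10, 4 and 7 non-coding tags against 8 and 10, or 24.7% against 40.0%. Nrxn2, a neurexin, had 17.6% against 38.1%. Kif5a, a kinesin motor, went the other way with 41.5% against 33.3%, as did Camk2a, a calmodulin kinase subunit, with 31.7% against 16.7%. The 15 genes with most non-coding tags took 8.08% and 6.23% of the non-coding tags of the monoclonal and polyclonal libraries. Lars2, which encodes the mitochondrial leucyl-tRNA synthetase, had 1, 2 and 4 tags against 3 and 7, all 17 of them non-coding.

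In the mRNAs with most Hu tags, the non-coding share was also higher with the polyclonal antibody. The 100 genes with most tags in the 2 Hu libraries took 4.08%, 4.22% and 4.27% of the monoclonal and 4.35% and 4.58% of the polyclonal tags, without overlap but with a difference of only -0.28 points. Of the tags on these genes, 35 of 183, 68 of 311 and 79 of 354 were non-coding in the monoclonal libraries, or 19.1%, 21.9% and 22.3%. In the polyclonal libraries 92 of 303 and 79 of 265 were, or 30.4% and 29.8%. The means were 21.1% ± 1.73 (SD, n = 3) and 30.1% ± 0.390 (SD, n = 2), a difference of -8.98 points (monoclonal minus polyclonal), with an exact permutation p of 0.1. Outside these genes the shares were 13.1%, 16.2% and 14.9% against 17.3% and 20.2%, a difference of -4.05 points, again with an exact permutation p of 0.1. Whether the 2 differences differ from each other was not tested. The list was chosen in libraries other than the 5 compared, after the non-coding difference had been seen.

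Among these 100 genes, those with most polyclonal non-coding tags were Atp2b2, described above, Agap2 and Kif1b. Agap2 had 6, 10 and 13 non-coding tags against 9 and 4, or 22.8% of its monoclonal and 24.1% of its polyclonal tags. Kif1b had 1, 0 and 2 non-coding tags of 10, 15 and 26 with the monoclonal mixture and 5 and 3 of 23 and 24 with the polyclonal antibody. Ppp3r1, the regulatory subunit of calcineurin, had 0 in each monoclonal library against 4 and 1, and Snap25, a SNARE protein of synaptic vesicle fusion, had 1, 0 and 1 against 3 and 2. In Kif1b, Ppp3r1 and Snap25 the non-coding tags of single genes were not tested.

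**Figure D3:**
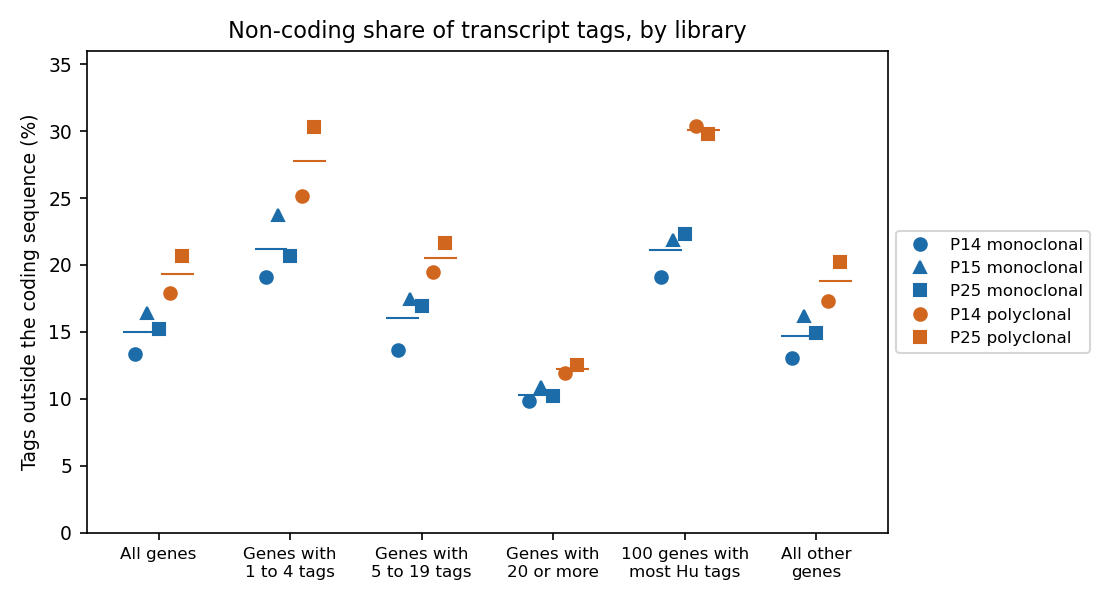
Percent of tags outside the coding sequence in each library, for all genes, for genes by their number of tags over the 5 libraries, and for the 100 genes with most Hu tags and all others. Blue marks are monoclonal and orange marks polyclonal libraries (circle P14, triangle P15, square P25), and lines are group means. Both polyclonal libraries lie above all 3 monoclonal ones in every class.

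The Illumina libraries of the polyclonal antibody had coding shares of 81.6% (P11) and 69.7% (P13), both below the 3 monoclonal libraries. They differ from each other by more than the 454 antibodies do, and their dissociation and platform differ, so the antibody cannot be told apart from the protocol there. The 100 genes with most tags in these Illumina libraries took 17.7%, 16.8% and 17.4% of the monoclonal tags and 16.8% and 16.1% of the polyclonal tags on 454, with a difference of 0.88 points and an exact permutation p of 0.2. Genes picked by one polyclonal protocol were thus not higher in the other polyclonal libraries than in the monoclonal ones.

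Along the transcript the antibodies traced nearly the same curve. The median tag lay at 34.0%, 34.1% and 33.4% of the transcript length with the monoclonal mixture and at 34.2% and 34.2% with the polyclonal antibody. The libraries did not overlap, but the difference was -0.38 points with an exact permutation p of 0.3. The first 10% of the transcript held 12.1%, 11.5% and 12.3% of the monoclonal and 12.3% and 12.5% of the polyclonal tags. The last 30% held 9.71%, 11% and 9.56% against 11.5% and 11.6%. Both polyclonal libraries were thus higher at the 3' end, with a difference of -1.43 points (monoclonal minus polyclonal, exact permutation p of 0.2). The higher non-coding share stood beside a higher share at the 3' end, and the part of the tags in either untranslated region was not measured here.

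**Figure D4:**
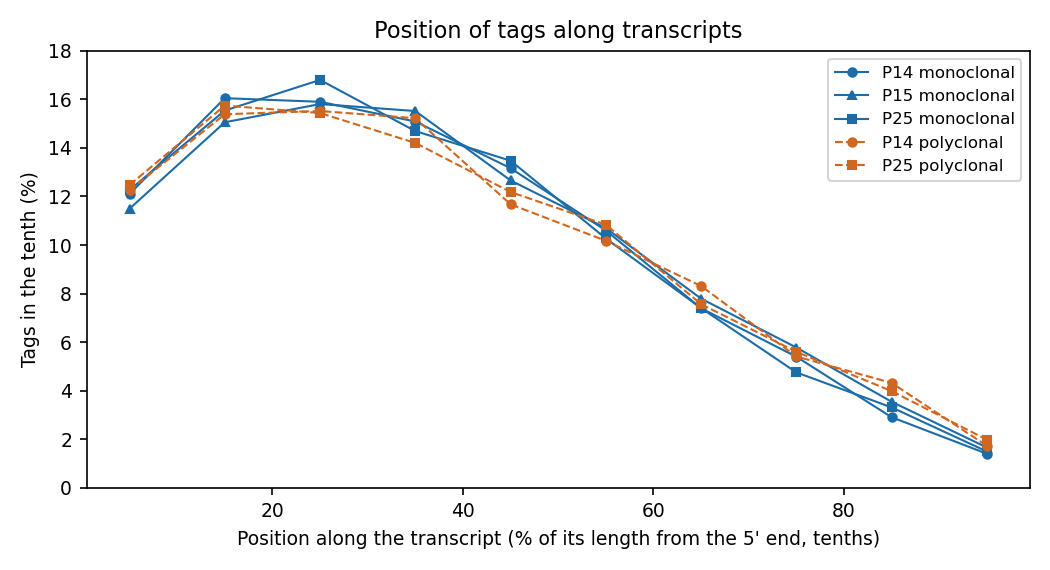
Percent of tags in each 10% of the transcript length, from the 5' end, in the 5 libraries. Solid blue lines are monoclonal and dashed orange lines polyclonal. All 5 curves are highest between 10% and 30% of the length and fall toward the 3' end, where the last 30% holds 9.56% to 11% of the monoclonal and 11.5% to 11.6% of the polyclonal tags.

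Libraries differed in how often a fragment had been read, and the antibodies overlapped. A tag was made of 23.4, 3.22 and 7.54 reads on average in the monoclonal libraries and of 10.6 and 18.8 in the polyclonal libraries. The mean was 11.4 ± 10.6 (SD, n = 3) against 14.7 ± 5.76 (SD, n = 2), with an exact permutation p of 0.7. Tags that shared a start or an end with another tag of their library made up 25.8%, 9.04% and 13.2% against 18.4% and 19.6%. After thinning every library to 4397 tags, 29.4%, 12.3% and 13.4% of the monoclonal and 19.6% and 20.3% of the polyclonal tags overlapped another tag. The P14 monoclonal library was highest and the P15 monoclonal library lowest on all 3 measures. The part of repeated amplification in the overlap was not tested. In coding share, too, the P14 monoclonal library was the highest, and the P25 polyclonal library was the lowest. Among the monoclonal libraries the coding share had the same order as reads per tag (P14, then P25, then P15). Between the polyclonal libraries the order was opposite. Whether coding share and reads per tag are related was not tested.

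**Figure D5:**
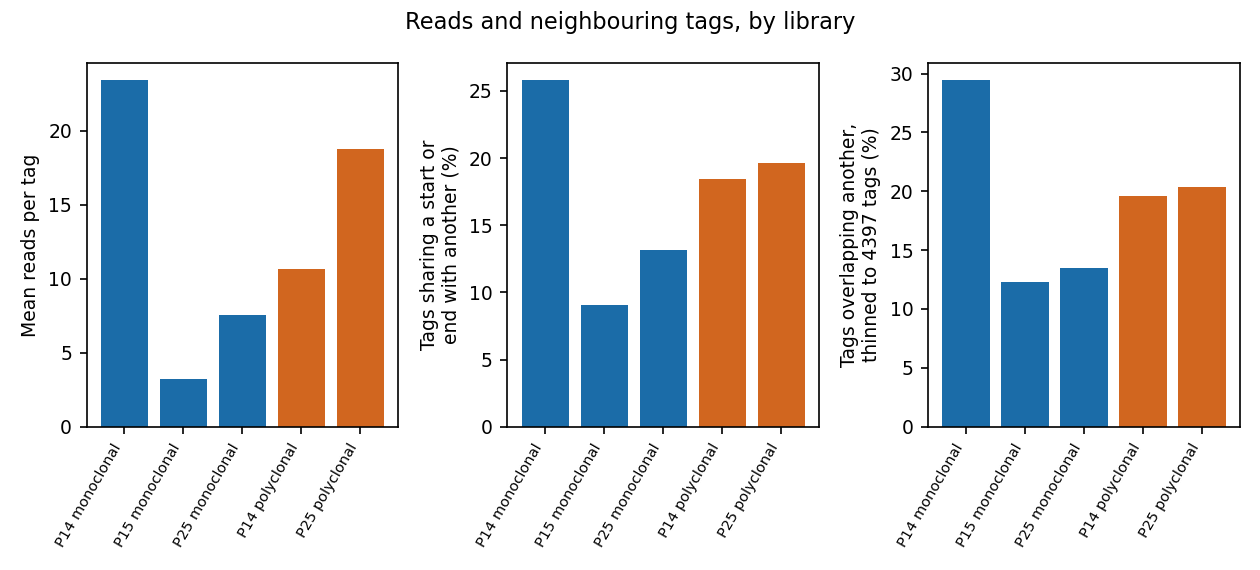
Mean reads per tag, percent of tags sharing a start or end with another tag of the library, and percent of tags overlapping another after thinning to 4397 tags. Blue bars are monoclonal and orange bars polyclonal libraries, and each bar is 1 library. The P14 monoclonal library is highest in each panel, at 23.4 reads, 25.8% and 29.4%.

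Dense pile-ups of tags were small and often came from 1 library. The share of tags with at least 10 others over them, after thinning, was 0% in the 3 monoclonal libraries, 0.0064% in the P14 polyclonal and 0% in the P25 polyclonal library (exact permutation p of 0.4). With at least 3 others it was 6.28%, 0.552% and 0.588% against 1.93% and 1.79%. In Shank1, a postsynaptic scaffold, 10 tags lay on 1 point in the P14 monoclonal library and 0 in the other 4. Those 10 tags held 4361 reads, of which 4313 belonged to 1 tag. Zfp746, a zinc finger gene, had 10 tags on 1 point, again all in the P14 monoclonal library, with 2473 of 2487 reads in 1 tag.

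The deepest polyclonal pile-ups also came from 1 library each. Trpc5, a cation channel, and Dbpht2 each had 11 tags on 1 point, all in the P14 polyclonal library and none in the other 4, with 43 and 293 reads. No single tag held nearly all of these reads, the largest having 13 and 89. Other pile-ups drew on several libraries. In Adcy1 the deepest point of the polyclonal tags had 1 and 7 of them, and 1, 3 and 5 monoclonal tags. In Agap2 it had 6 and 1 polyclonal and 3, 2 and 1 monoclonal tags. In Lzts3, a postsynaptic protein, the deepest point had 6, 3 and 1 monoclonal tags and no polyclonal ones, and in Kif1a 0, 8 and 2 against 1 and 0. Adgrl1 had a point with 2, 4 and 4 monoclonal and 0 and 1 polyclonal tags, and another, further along the transcript, with 0, 1 and 0 against 4 and 4. These points were chosen for the depth of one antibody, so their lean toward it is given as a description only.

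On the genome, 31.2%, 27.0% and 27.1% of the monoclonal tags and 28.6% and 32.9% of the polyclonal tags lay outside the authors' gene bounds, and the antibodies overlapped. The deepest places outside genes were the same for both. At chr17:39984156 (mm9) the tags were 70, 76, 68, 72 and 81 deep in the order monoclonal P14, P15 and P25, then polyclonal P14 and P25. At chr2:90235324 they were 47, 63, 50, 55 and 54 deep. As a share of genomic tags, the tags at the first place made up 0.941%, 0.705% and 0.568% with the monoclonal mixture and 0.668% and 0.776% with the polyclonal antibody, so the antibodies overlapped. The other place named for the polyclonal tags, at chr11:108873298, was 31 and 23 deep with that antibody and 15, 27 and 28 deep with the monoclonal mixture. Among tags inside genes whose strand was known, those on the opposite strand made up 8.58%, 4.87% and 6.41% with the monoclonal mixture. With the polyclonal antibody they made up 7.01% and 9.41%. Mitochondrial tags numbered 1, 10 and 10 against 6 and 31. The P25 polyclonal library, with 0.290%, was the highest in mitochondrial tags, in the share outside genes and in the non-coding share.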

How the data were processed

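The 5 FMRP libraries on 454 were grouped by the antibody in their labels. Per the submitters' processing notes, tags were aligned with Novoalign to mm9. The authors' gene table holds deposited tag counts per gene, once for the entire transcript and once for its coding part. In the deposited tag lists each line is 1 unique tag with counts of the reads merged into it, going by the values. The array intensity in the authors' table was read only as a description of the tagged genes. Table lines with the same gene identifier were summed. This touched 67 genes, whose gene bounds overlapped between lines in 4, and a tag listed on 2 such lines would count in both. At most 127 tags (0.384%) and 2 tested genes are affected, and 5922 of 5968 tagged genes were named by RefSeq. No sequence accompanies the tags.

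The gene test was edgeR 4.0.16 under R 4.3.3 (TMM, filterByExpr, quasi-likelihood fit, Benjamini-Hochberg adjustment at 0.05) with antibody as the only term, with DESeq2 1.42.0 as an alternative. The 95% intervals of log2 differences are not an edgeR output. Their standard error was derived from the unshrunken coefficient and the F statistic, and they were centred on the reported log2 difference. The script was tested on simulated data. Measures with 1 value per library were compared by 2-sided exact permutation over the 10 arrangements. Thinning used hypergeometric expectations. Intervals of shares are Wilson intervals at 95%, and like the floor of 3 counts they cover counting error only. Folds against 0 tags used 3 counts over the group and took the tags of the other antibody as counted, without their counting error. Measures and figures used Python 3.11.15 with scipy 1.17.1, numpy 2.4.6, matplotlib 3.10.9 and pandas 2.3.3.

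Named genes were the 12 with most tags, the 8 with the smallest p per direction (since fewer than 5 passed), 5 per antibody without tags of the other, the 5 deepest transcript and 3 deepest genomic pile-ups per antibody, and list members. The members and lists were chosen with earlier results of these data known. Some genes that this rule names are not reported here.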

Additional observations from a re-analysis of the deposited data

Results flagged for a closer look

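The share of genomic tags outside genes and the reads merged into a tag moved in opposite directions at the 2 ages that both antibodies share. Outside genes, the monoclonal share minus the polyclonal share was 2.65 points at P14 and -5.76 points at P25. The mean reads per tag differed by 12.8 at P14 and by -11.2 at P25, in the same direction of subtraction. Each age has 1 library of each antibody, so the difference between ages was not tested.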

How the results depend on the processing

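Each of the 19 other fits of the gene test called 0 genes. They tested 4 to 5968 genes, and 0 to 10 genes, or 79 of 5968 without a filter, had an unadjusted p under 0.05. The log2 differences of 26 named genes, none of them called, were refitted 433 times in all. They moved by more than 1 standard error in 19 refits and changed sign in 34, in 11 genes, but in none of the 68 refits of Celsr2, Grik5, Adgrb1 and Kif1b. Counting overlapping tags of a library once, counting only non-coding tags, leaving out tags under 25 nt and the share in the last 30% of the transcript were chosen after seeing the data.

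The coding share kept its direction under all 9 alternatives. It was 2.34 points higher with the monoclonal mixture in genes tagged in all 5 libraries, and 2.92 to 5.67 points higher when 1 library was left out. The tag position differed by -0.72 as a mean over tags, by -1.43 points in the last 30% of the transcript, and by -0.52 to -0.15 without 1 library. For pile-ups, 5 others gave 0.259 and 3 others 0.614 points, both reversed, and tags not thinned gave -0.168. Leaving out 1 library gave -0.0064 to 0. The share of tags outside genes differed by -4.43 to -0.14 points without 1 library. The mitochondrial share differed by -0.227 (without the P14 polyclonal library) to 0.0075 points, and the sign turned without the P25 polyclonal library. Reads per tag differed by -9.33 to 0.762 without 1 library, turning without the P15 monoclonal library (0.762) or the P25 polyclonal library (0.752). Within P14 and P25 alone they differed by 0.762, and as the share of tags made of 1 read by 5.29 points. The cause of these changes was not tested. Age served as the block for P14 and P25: the gene test called 0 of 70 genes. No paired analysis by replicate number was possible because the labels number no replicates. With 4397 to 7713 tags a library, 2-fold differences could be missed in most genes with 100 tags or fewer, since 11 of 45 tested genes with 51 to 100 tags and none of 37 with 21 to 50 had an interval within 2-fold, and 27 of those 37 had one within 4-fold.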
